A study of Homo sapiens with 12 samples.

Results

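The 50 genes described here encode ribosome biogenesis and RNA polymerase I (Pol I) factors. The set is a list of gene symbols, drawn up with earlier results of these data known, and all 50 symbols were found among the 28278 symbols of the count table. In the comparison of hydroxychloroquine (HCQ)-evolved with control cells, most had a log2 fold change below 0, and few passed the test. In CCL218, 49 of 50 were below 0, beside 51.7% of all genes tested, and 3 of them fell past an adjusted p of 0.05, namely RRP12, WDR74 and PPAN, beside 2.64% of all genes. In OVCAR3, 43 of 50 were below 0, beside 48.4% of all genes, and 0 passed the test, beside 1.21% called lower.

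Ribosome production starts in the nucleolus, where Pol I transcribes a long precursor of the ribosomal RNAs. Small nucleolar ribonucleoproteins (snoRNPs) guide chemical modification of this precursor, the box C/D type placing methyl groups and the box H/ACA type placing pseudouridines. A large crew of helicases, GTPases, scaffolds and WD-repeat proteins then folds and cleaves it into the small and large subunits. Growing tumour cells spend much of their energy on this pathway, and many of its genes carry binding sites for the growth regulator MYC in their promoters.

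Poly(A) RNA was sequenced from cells labelled OVCAR3, an ovarian cancer line, and CCL218, a colorectal cancer line. HCQ, a weak base that accumulates in lysosomes and blocks autophagy, was given to the evolved cells in 15 pulse-chases of 48 h, and cells then grew for 7 days without drug. HCQ-evolved pools carry passage 15 and control pools, passaged without drug, carry passage 19 in the labels, so drug history and passage cannot be told apart. Each group was one 96-well plate whose left (L), middle (M) and right (R) parts were pooled into 3 libraries, giving 4 groups and 12 libraries. All pools of a group thus share a plate, and p-values measure only the spread between such pools.

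The pools held between 31.15 and 59.97 M counts, and single members had between 96 and 106952 counts in a pool. The colorectal markers CDX2, VIL1, CDH17, LGR5, GPA33 and HNF4A were at 1 CPM (counts scaled to library size) or more in controls of both lines, which is 6 of 8 listed. Their list summed to 299.6 to 406 CPM in pools labelled control OVCAR3 and to 348 to 429.8 CPM in control CCL218. In the evolved pools the sum was 131 to 217 CPM in OVCAR3 and 485 to 555 CPM in CCL218. The sum was thus lower after evolution in one line and higher in the other, with no overlap of pools. Single markers went both ways. Of the 6 tested, 2 had a log2 fold change above 0 and 4 below in OVCAR3. In CCL218, 4 were above and 2 below, with 3 called higher and 1 lower, beside 3.82% and 2.64% of all genes. Of 8 ovarian markers, the OVCAR3 controls held PAX8, MUC16, MSLN and FOLR1 at 1 CPM or more, with WT1, EMX2, SOX17 and ESR1 below, and CCL218 controls held the same ones. In the evolved pools of both lines WT1 was also at 1 CPM or more. The ovarian list summed to 42.1 to 64.8 CPM in control and 39.8 to 63.6 CPM in evolved OVCAR3. In CCL218 it summed to 66.1 to 131 CPM in control and 109 to 152 CPM in evolved pools. The markers therefore go against the ovarian label, and OVCAR3 is used here as the name of the labelled libraries only. Of the stromal and immune markers, COL1A2, COL3A1, DCN, LUM, PTPRC and CD3E were below 1 CPM in all groups, COL1A1 and CD68 were at 1 CPM or more in all groups, and PECAM1 was so in all but HCQ-evolved CCL218. Their sum lay between 16.4 and 21.7 CPM in control pools and between 29.9 and 41.9 CPM in evolved pools of OVCAR3, and in CCL218 between 16.3 and 17.7 CPM and between 53.3 and 58.3 CPM. Most of it was CD68, a lysosomal membrane protein abundant in macrophages, which was at 11.48, 17.2 and 14.0 CPM in control pools and at 36.8, 39.5 and 26.2 CPM in HCQ-evolved pools of OVCAR3 and at 11.8, 14.7 and 13.4 CPM in control pools and at 52.8, 54.0 and 50.5 CPM in HCQ-evolved pools of CCL218. The part of these markers in the member values was not tested. Pools also differed in how levels depended on transcript length. Across genes, Spearman's rho between length and the pool's deviation ran from -0.51 in control CCL218 L to 0.58 in HCQ-evolved OVCAR3 R, with both signs inside every group. In bulk RNA, fewer cells of a kind and less RNA per cell cannot be told apart.

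All 50 members passed the filter of at least 1 CPM in at least 3 libraries in both lines. In OVCAR3, 43 members had a log2 fold change below 0, where 48.4% of all 12204 genes tested did. Of the members, 0 passed an adjusted p of 0.05 in the quasi-likelihood test of edgeR, with 1.21% of all genes called lower and 0.647% called higher. With no adjustment, 3 members were lower at a p of 0.05 (RRP12, NOP2 and NOP58) and 0 higher, where 7.87% and 8.38% of genes overall were. DESeq2's Wald test called 1 member, RRP12, against 4.61% of all genes called lower. A block for plate position gave 0, against 0.524%, and leaving out control L or control M gave 0, against 0.025% and 0.133%. Leaving out control R, HCQ-evolved L or HCQ-evolved M also gave 0, where 4, 49 and 25 genes were called in either direction. Without HCQ-evolved R, 0 members were called and 38 were below 0. In that fit 557 of 12113 genes were called in either direction. Using no filter gave 0 against 1.43%, the block with the length and GC trend removed gave 0 against 2%, and one fit of all 12 libraries gave 1 (RRP12) against 4.81%. Ranking pools without a model, 12 members had their evolved pools all beneath their control pools, against 12.3% of all genes, and 1 (NVL) had them above, against 13.5%. The member median log2 fold change was -0.21 (from -0.84 to 0.31), beside 0.016 over all genes. The sign of 20 members turned in OVCAR3 when 1 pool was left out, and of 6 in CCL218. The lowest of these was GNL2, a GTPase of large subunit assembly, at -0.42 in OVCAR3 and 0.0074 without control L.

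In CCL218, 49 members were below 0, where 51.7% of all 12241 genes were. The 3 members called lower stood beside 2.64% of all genes called lower, and 0 members were called higher, beside 3.82%. DESeq2 called 18 lower, beside 8.72%, no filter gave 5, beside 1.93%, the block with the length and GC trend removed gave 16, beside 6.13%, and one fit of all 12 libraries gave 1, beside 2.32%. With no adjustment, 26 members were lower at a p of 0.05, against 12.7% of all genes, and 0 were higher, against 12.5%. Evolved and control pools did not overlap, with the evolved ones lower, for 29 members, against 17.4% of all genes, and above for 0, against 18.5%. The member median was -0.38 (from -0.94 to 0.21), beside -0.017 over all genes. A fit with plate position as a block called 12 members lower in CCL218, against 6.43% of all genes. These 12 include the 3 called without the block, and add NOP16, NOP2, NIP7, RRS1, BOP1, NOLC1, MRTO4, RRP1 and DKC1. All members called in these fits were lower. The unblocked count depended on single pools. Leaving out control L raised the count to 30 (against 11.6% of all genes), and leaving out control M left 1 (against 1.21%). Leaving out any other CCL218 pool left 0, and the shares over all genes in those fits are not given here. Whether such fits called fewer genes in general can thus not be read from that 0.

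**Figure D1:**
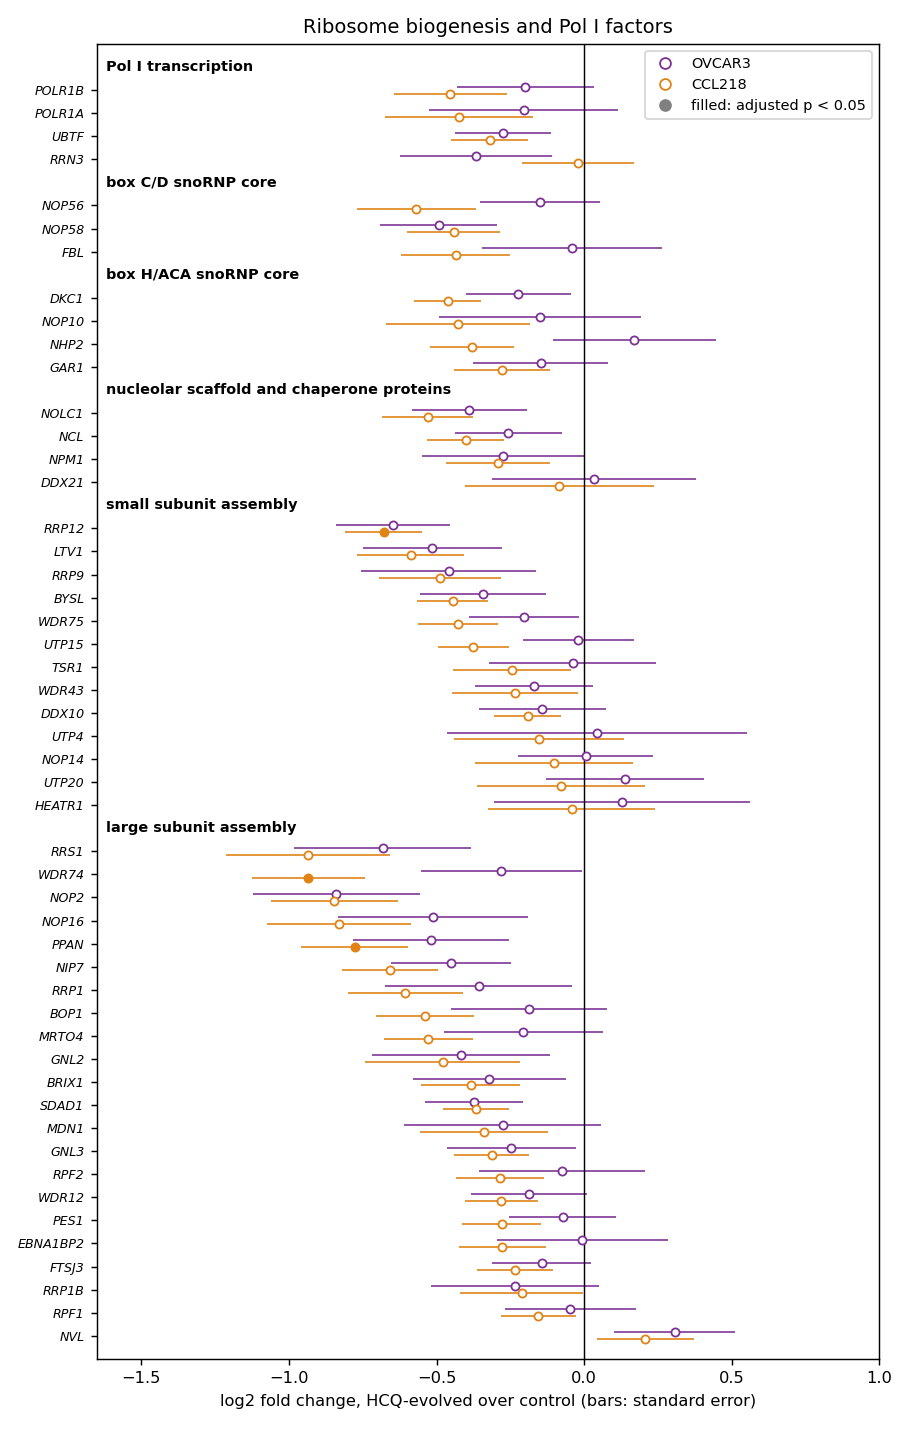
Log2 fold change of each of the 50 members, HCQ-evolved over control (x axis), with the standard error as a bar, for OVCAR3 (purple) and CCL218 (orange), grouped by role. In CCL218 49 of 50 points lie left of 0 and the 3 filled points (RRP12, WDR74 and PPAN) have adjusted p under 0.05, while in OVCAR3 43 lie left of 0 and none is filled.

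Since nearly all members had log2 fold changes below 0, their promoters were searched for short motifs, in the RefSeq table on GRCh38.p14 that gives 250 bases before and 50 after each gene's start. The table held 43 of the 50 members, and not NOP58, NOLC1, RRP12, RRS1, BOP1, RRP1B and RPF2. The palindrome CACGTG, known as the E-box that MYC with MAX and also the lysosomal regulators of the TFEB family bind, was present in 16 of 43 member promoters (37.2%) and in 7.43% of all 27305 promoters, 8.92% of those of protein-coding genes in the count table and 4.76% of those of 63 cytosolic ribosomal proteins. Its variant CACGCG, searched on both strands, was in 32.6% of member promoters, 11.4% of all, 15% of protein-coding and 20.6% of ribosomal protein promoters. The ETS-type motif CCGGAAG was in 34.9%, 10.7%, 14.5% and 33.3% in the same order, so its share in members was close to that in ribosomal protein genes. TATAAA was in 6.98%, 12%, 9.57% and 7.94%. Overlaps between motifs were not removed. Below are the windows of 30 bases, with CACGTG in capitals, of the 6 members that had an unadjusted p under 0.05 in CCL218 and a full window in the table. They are followed by UTP20 and NOP14, which hold the same motif and had log2 fold changes near 0, and all were chosen with their values seen.
FBL (chr19:39846356-39846385, minus strand): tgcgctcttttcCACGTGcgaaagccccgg
BYSL (chr6:41921515-41921544, plus strand): ttcttcagtcccCACGTGcgatccttcccg
LTV1 (chr6:143843354-143843383, plus strand): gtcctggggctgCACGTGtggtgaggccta
RRP9 (chr3:51941892-51941921, minus strand): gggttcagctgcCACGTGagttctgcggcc
MRTO4 (chr1:19251807-19251836, plus strand): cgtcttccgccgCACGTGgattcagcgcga
SDAD1 (chr4:75991156-75991185, minus strand): tacatgctaacaCACGTGaaaaaatttaca
UTP20 (chr12:101280083-101280112, plus strand): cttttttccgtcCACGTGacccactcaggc
NOP14 (chr4:2963374-2963403, minus strand): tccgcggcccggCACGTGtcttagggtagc
NOP2 holds the motif too close to the end of the promoter entry for such a window. The motif started within 30 bases of the transcription start in 7 of the 8 genes shown, and 228 bases before it in SDAD1. The 16 with CACGTG had median log2 fold changes of -0.19 in OVCAR3 and -0.40 in CCL218, and the 27 without it -0.20 and -0.37. The 7 members with no promoter entry, RRP12 and RRS1 among them, had -0.39 and -0.53, and whether they hold the motif was not analysed here. A match of letters is no evidence that a factor was bound in these cells.

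The 4 Pol I members were all below 0 in both lines, and 0 of 4 were called. UBTF, which binds ribosomal DNA and opens it for Pol I, had pools apart in both lines. In OVCAR3 it was at 146, 166 and 156 CPM in control pools and at 128, 117 and 141 CPM in HCQ-evolved pools, given here and throughout in the order L, M and R. That is a log2 fold change of -0.27 ± 0.16 (SE) at an adjusted p of 0.46. The CCL218 libraries had UBTF at 164, 193 and 207 CPM in control pools and at 149.7, 145 and 158 CPM in HCQ-evolved pools, a log2 fold change of -0.32 ± 0.13 (SE) at an adjusted p of 0.18.

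POLR1A, the largest Pol I subunit, and POLR1B, the second largest, had overlapping groups in both lines. POLR1A was at 42.8, 55.4 and 31.9 CPM in control pools and at 32.3, 26.7 and 53.8 CPM in HCQ-evolved pools of OVCAR3, with a log2 fold change of -0.21 ± 0.32 (SE) at an adjusted p of 0.8. In CCL218 the gene was at 59.1, 103 and 80.7 CPM in control pools and at 48.9, 55.1 and 77.2 CPM in HCQ-evolved pools, with a log2 fold change of -0.42 ± 0.25 (SE) at an adjusted p of 0.327. Its transcript of 12480 bases is among the longest of the set. POLR1B in OVCAR3 was at 26.7, 36.9 and 26.4 CPM in control pools and at 23.4, 22.5 and 32.4 CPM in HCQ-evolved pools, with a log2 fold change of -0.20 ± 0.23 (SE) at an adjusted p of 0.722. In CCL218 it stood at 36.3, 56.0 and 48.8 CPM in control pools and at 31.04, 32.9 and 39.2 CPM in HCQ-evolved pools, a log2 fold change of -0.45 ± 0.19 (SE) at an adjusted p of 0.193. With the trend in length and GC content removed, POLR1B was called lower in CCL218 (log2 fold change -0.51, adjusted p = 0.0117).

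RRN3, the factor that brings Pol I to its promoter, had the lowest level per length of the set. It was at 4.06, 2.90 and 2.69 CPM in control pools and at 2.66, 2.37 and 2.45 CPM in HCQ-evolved pools in OVCAR3, with no overlap and a log2 fold change of -0.37 ± 0.26 (SE) at an adjusted p of 0.535. In CCL218 it was at 4.15, 3.04 and 3.95 CPM in control pools and at 3.77, 3.72 and 3.48 CPM in HCQ-evolved pools, overlapping, with a log2 fold change of -0.021 ± 0.19 (SE) at an adjusted p of 0.954. RRN3 has 3 named pseudogenes that can share its reads, so these levels are uncertain.

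The box C/D core has 3 members, all below 0 in both lines, with medians of -0.15 in OVCAR3 and -0.44 in CCL218. None was called. At an unadjusted p of 0.05, 1 of 3 was lower in OVCAR3 and 3 of 3 in CCL218, where 7.87% and 12.7% of all genes were. NOP58, a core scaffold of these particles, was at 139, 102 and 123 CPM in control pools and at 96.0, 90.0 and 72.5 CPM in HCQ-evolved pools of OVCAR3. The pools were apart, with a log2 fold change of -0.49 ± 0.20 (SE) at an adjusted p of 0.271. In CCL218, NOP58 was at 147, 103 and 123 CPM in control pools and at 87.3, 88.3 and 98.9 CPM in HCQ-evolved pools, also apart, with a log2 fold change of -0.44 ± 0.16 (SE) at an adjusted p of 0.138. Its partner NOP56 and the methyltransferase fibrillarin (FBL) had log2 fold changes of -0.57 and -0.44 in CCL218, and of -0.15 and -0.04 in OVCAR3. The FBL groups overlapped in both lines. With the trend in length and GC content removed, FBL was at -0.17 in CCL218 (adjusted p = 0.29). NOP56 and NOP58 were then at -0.44 and -0.40 and were called (adjusted p = 0.0466 and 0.0481).

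The box H/ACA core has 4 members, with medians of -0.15 in OVCAR3 and -0.40 in CCL218. DKC1, the pseudouridine synthase, had the smallest adjusted p of the uncalled members in CCL218, where it was at 269, 262 and 297 CPM in control pools and at 206, 189 and 205 CPM in HCQ-evolved pools. These pools were well apart, with a log2 fold change of -0.46 ± 0.11 (SE) at an adjusted p of 0.0578, and the adjusted p was 0.0469 with the plate-position block. OVCAR3 had DKC1 at 218, 214 and 256 CPM in control pools and at 214, 207 and 168 CPM in HCQ-evolved pools, where the groups overlapped, with a log2 fold change of -0.22 ± 0.18 (SE) at an adjusted p of 0.594. NHP2, a small RNA-binding subunit, was the one H/ACA member above 0 in OVCAR3. It was at 94.7, 73.3 and 112 CPM in control pools and at 117, 128 and 69.8 CPM in HCQ-evolved pools there, with wide overlap and a log2 fold change of 0.17 ± 0.28 (SE) at an adjusted p of 0.812. In CCL218 it was at 112, 86.8 and 101 CPM in control pools and at 84.3, 72.7 and 73.7 CPM in HCQ-evolved pools, apart, with a log2 fold change of -0.38 ± 0.14 (SE) at an adjusted p of 0.153. Exons of NHP2 overlap RMND5B on the opposite strand, and whether counting used strand is not given in the sources used here. NOP10 and GAR1 had log2 fold changes of -0.43 and -0.28 in CCL218 and of -0.15 and -0.15 in OVCAR3.

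The nucleolar scaffolds and chaperones nucleolin (NCL), nucleophosmin (NPM1), NOLC1 and the helicase DDX21 had medians of -0.27 and -0.35, with 0 of 4 called in either line. NOLC1, which links snoRNPs to the nucleolus and Cajal bodies, was at 193, 248.8 and 189 CPM in control pools and at 162, 137 and 184 CPM in HCQ-evolved pools of OVCAR3. The highest evolved pool, 184 CPM, was below the lowest control pool, 189 CPM, and the result was a log2 fold change of -0.39 ± 0.19 (SE) at an adjusted p of 0.378. In CCL218 NOLC1 was at 248.7, 319 and 314 CPM in control pools and at 183, 195 and 233 CPM in HCQ-evolved pools, with a log2 fold change of -0.53 ± 0.15 (SE) at an adjusted p of 0.0921, and an adjusted p of 0.0346 with the block. NCL, among the most abundant mRNAs of the set, was also apart in both lines. Its log2 fold changes were -0.26 and -0.40, with adjusted p of 0.538 and 0.113. NPM1 had -0.27 and -0.29, and 49 named pseudogenes could take or give reads to it.

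For DDX21, a helicase that also binds ribosomal DNA, the CCL218 value depended on 1 pool. It was at 117, 287 and 265 CPM in control pools and at 181, 206 and 244 CPM in HCQ-evolved pools, and the control L pool lay below all evolved pools. Its log2 fold change was -0.084 with all pools and -0.40 without control L (adjusted p = 0.0347). In NOP14, UTP4, WDR43, TSR1, UTP20 and HEATR1, of the small subunit set, control L also lay below all evolved pools. Without it NOP14 went from -0.10 to -0.38 (adjusted p = 0.0092) and UTP4 from -0.15 to -0.43 (adjusted p = 0.0325). WDR43 went from -0.24 to -0.45 (adjusted p = 0.0106) and TSR1 from -0.24 to -0.43 (adjusted p = 0.0222). UTP20 and HEATR1 went to -0.35 and -0.31 and did not pass (adjusted p = 0.118 and 0.119). Control L of CCL218 is the pool with the most negative trend with transcript length, and its part in these values was not tested beyond leaving it out.

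Among 13 small subunit assembly factors, 9 were below 0 in OVCAR3 and 13 in CCL218, with medians of -0.14 and -0.24. RRP12, an export and maturation factor of pre-ribosomes, fell in CCL218. It was at 74.4, 65.1 and 70.5 CPM in control pools and at 47.0, 39.2 and 44.9 CPM in HCQ-evolved pools, from 70.0 ± 4.68 CPM in control pools to 43.7 ± 4.01 CPM (mean and SD, n = 3 pools). The groups were far apart, with a log2 fold change of -0.68 ± 0.13 (SE) at an adjusted p of 0.0276. OVCAR3 had RRP12 at 62.2, 55.4 and 51.6 CPM in control pools and at 41.6, 35.7 and 30.8 CPM in HCQ-evolved pools, equally without overlap. The log2 fold change of -0.65 ± 0.19 (SE) at an adjusted p of 0.142 there did not pass, although DESeq2 and a fit of all 12 libraries called it at adjusted p of 0.0240 and 0.0210. The RRP12 difference between lines was -0.010 with a standard error of 0.22.

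Other small subunit factors with pools apart and lower in both lines were BYSL and LTV1, which act late on the small subunit precursor. BYSL had log2 fold changes of -0.34 and -0.45 (OVCAR3, then CCL218) and LTV1 of -0.51 and -0.59, none past the adjusted threshold. RRP9, UTP15, WDR75 and DDX10 had pools apart in CCL218 and overlapping in OVCAR3, with CCL218 log2 fold changes of -0.49, -0.37, -0.43 and -0.19. At the other end stood large scaffold proteins of the early small subunit precursor. In OVCAR3, UTP20 was at 15.2, 22.9 and 14.2 CPM in control pools and at 17.0, 16.0 and 24.5 CPM in HCQ-evolved pools. HEATR1 was at 22.7, 44.2 and 20.5 CPM in control pools and at 23.0, 21.0 and 51.4 CPM in HCQ-evolved pools. Their log2 fold changes were 0.14 and 0.13, with standard errors of 0.27 and 0.43. In CCL218, UTP20 was at 21.1, 46.0 and 37.0 CPM in control pools and at 29.0, 30 and 39.5 CPM in HCQ-evolved pools. There HEATR1 was at 30.7, 64.7 and 58.1 CPM in control pools and at 40.6, 51.3 and 57.3 CPM in HCQ-evolved pools. These gave log2 fold changes of -0.079 and -0.042. Pools of both genes overlapped widely in both lines, and their sign changed when single pools were left out.

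Large subunit assembly held 22 members, the largest role, with 21 of 22 below 0 in both lines and medians of -0.26 and -0.38. WDR74, which works with the remodelling ATPase NVL on the large subunit precursor, fell in CCL218. It was at 77.7, 49.5 and 56.4 CPM in control pools and at 35.2, 29.4 and 31.5 CPM in HCQ-evolved pools, and went from 61.2 ± 14.7 CPM in control pools to 32.0 ± 2.91 CPM (mean and SD, n = 3 pools). No pool overlapped, with a log2 fold change of -0.93 ± 0.19 (SE) at an adjusted p of 0.0355 and an adjusted p of 0.0052 with the block. OVCAR3 had WDR74 at 80.6, 51.5 and 69.5 CPM in control pools and at 63.5, 64.5 and 38.0 CPM in HCQ-evolved pools. These overlapped, with a log2 fold change of -0.28 ± 0.27 (SE) at an adjusted p of 0.665.

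PPAN, a protein of the early large subunit precursor, also fell in CCL218. It was at 6.15, 6.18 and 4.78 CPM in control pools and at 3.55, 3.11 and 3.32 CPM in HCQ-evolved pools, with a log2 fold change of -0.78 ± 0.18 (SE) at an adjusted p of 0.0496. In OVCAR3, PPAN was at 4.58, 4.68 and 2.96 CPM in control pools and at 3.02, 2.96 and 2.54 CPM in HCQ-evolved pools, where the lowest control pool lay among the evolved pools, with a log2 fold change of -0.52 ± 0.26 (SE) at an adjusted p of 0.388. PPAN had only 155 to 271 counts in a pool. Its exons are shared on the same strand with the readthrough gene PPAN-P2RY11 and with P2RY11, so how reads were split between them affects its level, which is uncertain. Removing the trend in length and GC content put it just outside the threshold in CCL218 (log2 fold change -0.61, adjusted p = 0.0537).

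The lowest fold changes of the set belonged to NOP2 in OVCAR3 and RRS1 in CCL218. NOP2, a methyltransferase of the large subunit RNA, was at 84.5, 54.2 and 42.6 CPM in control pools and at 39.3, 29.2 and 32.7 CPM in HCQ-evolved pools of OVCAR3. Its highest evolved pool was under its lowest control pool, and the log2 fold change of -0.84 ± 0.28 (SE) at an adjusted p of 0.192 came with a wide control spread. In CCL218 NOP2 was at 99.5, 60.3 and 62.0 CPM in control pools and at 40.3, 38.3 and 44.7 CPM in HCQ-evolved pools, with a log2 fold change of -0.85 ± 0.22 (SE) at an adjusted p of 0.0644. RRS1, which helps to bring the 5S particle into the large subunit, was at 92.5, 59.3 and 77.6 CPM in control pools and at 58.8, 54.4 and 29.7 CPM in HCQ-evolved pools of OVCAR3. It was apart by a narrow margin, with a log2 fold change of -0.68 ± 0.30 (SE) at an adjusted p of 0.321. In CCL218 it was at 127, 60.2 and 73.5 CPM in control pools and at 45.8, 40.7 and 49.9 CPM in HCQ-evolved pools, a log2 fold change of -0.94 ± 0.28 (SE) at an adjusted p of 0.0954. In OVCAR3 the place of NOP2 rested on control L, without which its log2 fold change was -0.52 and RRP12 was lowest at -0.58. RRS1 was -0.43 in OVCAR3 without HCQ-evolved R. For both genes the CCL218 control L pool was far above the other controls. Without it the log2 fold changes shrank to -0.58 for NOP2 and -0.56 for RRS1, and both passed the test (adjusted p = 0.0023 and 0.0070). The place of RRS1 in CCL218 also rested on that pool. With all pools it was barely below WDR74 (-0.936 and -0.934), and without control L WDR74 was lowest at -0.73.

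NIP7 and SDAD1, also of the large subunit path, were lower with pools apart in both lines. NIP7 had log2 fold changes of -0.45 and -0.66, and SDAD1 of -0.37 and -0.37. The PeBoW complex of PES1, BOP1 and WDR12, needed to process the large subunit RNA, had log2 fold changes of -0.28, -0.54 and -0.28 in CCL218, with pools apart for each. In OVCAR3 they were -0.072, -0.19 and -0.19, with overlap. NVL was the exception. It was at 13.5, 15.6 and 14.0 CPM in control pools and at 15.9, 15.6 and 21.9 CPM in HCQ-evolved pools in OVCAR3, all evolved pools above all controls, the nearest by less than the digits printed, with a log2 fold change of 0.31 ± 0.21 (SE) at an adjusted p of 0.516. In CCL218 NVL was at 14.9, 20.04 and 20.2 CPM in control pools and at 19.5, 20.8 and 23.4 CPM in HCQ-evolved pools, overlapping, with a log2 fold change of 0.21 ± 0.16 (SE) at an adjusted p of 0.455. So WDR74 and its partner NVL differed in the sign of their values in both lines, and of these values only that of WDR74 in CCL218 passed the test.

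**Figure D2:**
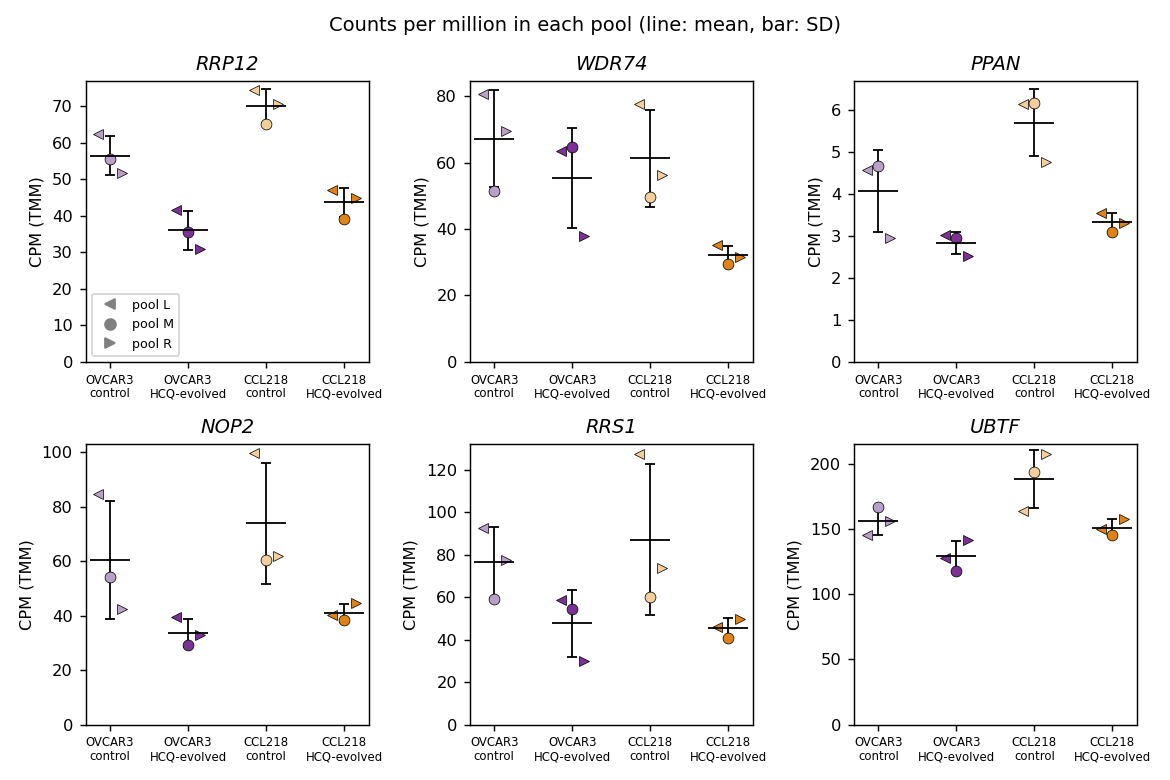
CPM after TMM scaling (y axis, from 0) of 6 members in every pool of the 4 groups (x axis), with triangles pointing left for pool L, circles for M and triangles pointing right for R; the line is the mean and the bar the SD of 3 pools. RRP12 is lower in every HCQ-evolved pool in both lines, and WDR74 has no overlap in CCL218 and overlaps in OVCAR3.

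The members were compared between lines by testing the difference of the log2 fold changes in one fit of all 12 libraries. Of 50 members, 0 were called by edgeR, against 0.872% of all 12613 genes, 0 passed at the unadjusted level of 0.05, and DESeq2 called 0. The median difference (CCL218 minus OVCAR3) was -0.12, beside -0.03 over all genes, with 44 members below 0. The median standard error of a difference was 0.32, so differences as small as the median were not detectable. WDR74 had the smallest p, 0.104, with a difference of -0.63 and a standard error of 0.36. Removing the trend in length and GC content gave -0.53 with a standard error of 0.12 and an adjusted p of 0.0424.

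Across the 50 members, the fold changes of both lines ran in parallel, with Pearson's r of 0.76 and Spearman's rho of 0.73. This is a description over genes that share libraries, and genes are not independent replicates. The same correlation over all genes, or with the length and GC trend removed, is not given here. The parallel is thus not shown to be particular to the members. The lines do not share control pools, but some members had a like pattern over the 3 control pools in both lines. GNL2 was at 137, 67.6 and 66.3 CPM in control OVCAR3 and at 157, 81.9 and 82.1 CPM in control CCL218. In UTP4 the pattern differed, with 7.55, 18.2 and 7.90 CPM and 11.4, 25.1 and 22.6 CPM. The part of such pool patterns, or of the markers common to both lines, in these correlations was not tested. In all, 43 members were below 0 in both lines, where 36.5% of genes tested in both were. Lower evolved pools without overlap were found in both lines for 11 members, UBTF, NOP58, NCL, NOLC1, BYSL, LTV1, RRP12, RRS1, NOP2, NIP7 and SDAD1, against 6.28% of genes.

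**Figure D3:**
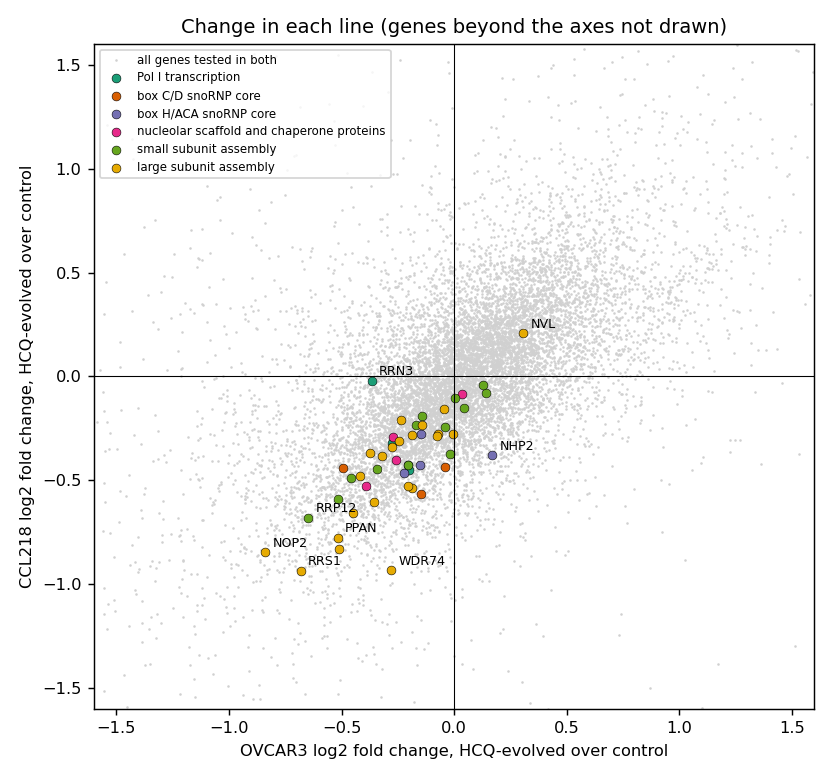
Log2 fold change in OVCAR3 (x axis) against that in CCL218 (y axis), grey for all genes tested in both and coloured by role for the 50 members, with genes beyond the axes not drawn. Of the members, 43 lie below 0 on both axes, and NVL lies above 0 on both.

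Seen pool by pool, the members took 0.669%, 0.628% and 0.678% of all counts in control OVCAR3 and 0.608%, 0.595% and 0.505% in HCQ-evolved OVCAR3. In CCL218 they took 0.738%, 0.697% and 0.747% in controls and 0.563%, 0.541% and 0.590% after evolution. The evolved pools were below the controls in both lines, by a wider gap in CCL218. Such shares weigh members by their counts, and NPM1, NCL and FBL were the largest, at 1927, 1242 and 585 CPM in control OVCAR3 L. In OVCAR3 the groups overlapped for NPM1 and FBL and were apart for NCL. Set against the mean of the controls, the median member deviated by -0.34, -0.44 and -0.32 on the log2 scale in the evolved CCL218 pools and by -0.13, -0.19 and -0.44 in those of OVCAR3. The control pools themselves lay between -0.12 and 0.10. Pool R of evolved OVCAR3 lay lowest and had the strongest positive length trend (rho 0.58). Without that pool the OVCAR3 median log2 fold change was -0.20.

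**Figure D4:**
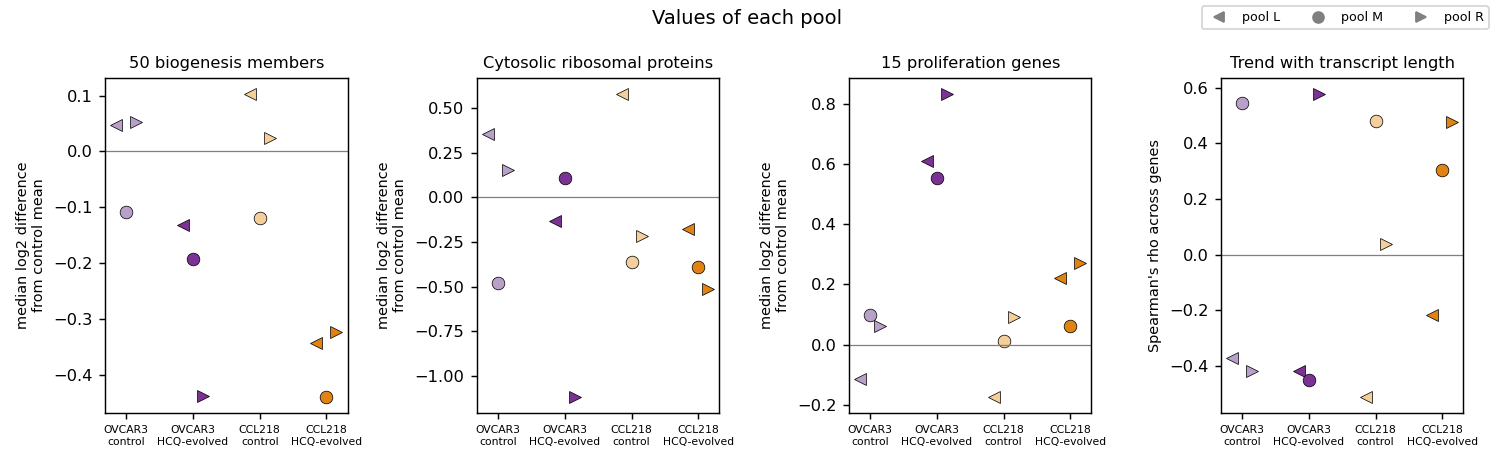
Values of each pool in the 4 groups (x axis): median log2 difference from the control mean of the line for the 50 members, the ribosomal protein genes and 15 proliferation genes, and Spearman's rho across genes between transcript length and deviation. Member medians of evolved pools lie below those of all control pools in both lines, while the length trend has both signs in every group.

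Member transcripts ran from 507 to 18485 bases (median 2558), and fold changes varied with length in CCL218. Spearman's rho between length and log2 fold change over the 50 members was 0.37 in CCL218 and 0.16 in OVCAR3, and with GC content -0.46 and -0.20. After a spline in length and GC content was removed from each library, rho with length was -0.078 and -0.019. The member medians stayed at -0.33 in CCL218 and -0.24 in OVCAR3, with 49 and 41 of 50 below 0. In CCL218, 19 members were then called lower, against 7.62% of all genes, and 2 of the 3 first called were among them (RRP12 and WDR74). In OVCAR3, 1 member (NOP58) was called, against 3.65%. Of the 6 roles, the H/ACA core had the largest shift of its median in CCL218 under this correction, from -0.40 to -0.087. Its short transcripts NOP10, NHP2 and GAR1 (507, 780 and 1015 bases) went to -0.095, -0.079 and -0.061, and DKC1 (2469 bases) to -0.43.

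**Figure D5:**
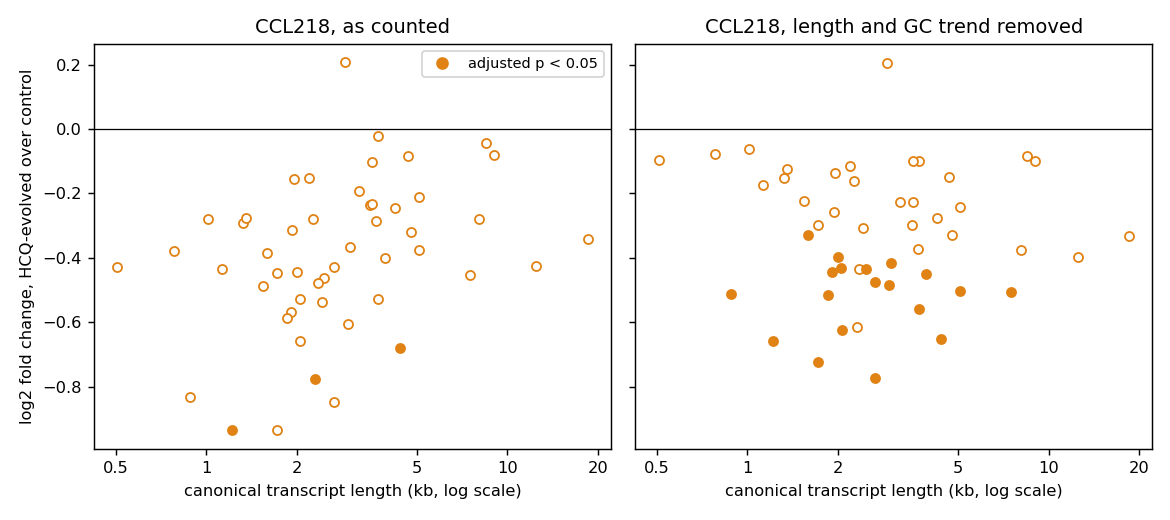
Log2 fold change in CCL218 (y axis) against canonical transcript length in kilobases (x axis, log scale) for the 50 members, as counted (left) and with the length and GC trend removed (right), with filled points at adjusted p under 0.05. Filled points number 3 on the left and 19 on the right, and 49 of 50 points lie below 0 in both.

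The 5 lists of other ribosome biogenesis genes, with 111 tested, also had most values below 0. In OVCAR3, 76 were below 0 with a median of -0.17 and 0 called. In CCL218, 90 were below 0 with a median of -0.31, 4 called lower and 0 higher, which is a share of calls near the 2.64% of all genes called lower. UTP14A, a small subunit factor, was at 82.5, 71.6 and 73.7 CPM in control pools and at 50.4, 52.0 and 51.1 CPM in HCQ-evolved pools in CCL218, a log2 fold change of -0.57 ± 0.12 (SE) at an adjusted p of 0.0345. CCDC86, a nucleolar protein placed with the large subunit factors, was at 74.2, 54.3 and 60.02 CPM in control pools and at 38.3, 30.5 and 35.9 CPM in HCQ-evolved pools, a log2 fold change of -0.85 ± 0.16 (SE) at an adjusted p of 0.0301. Both were apart in OVCAR3 as well, with log2 fold changes of -0.75 and -0.56 (adjusted p = 0.0872 and 0.215).

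POLR1D, a subunit shared by Pol I and Pol III, and EXOSC8, a core subunit of the RNA exosome, fell in CCL218 and had values above 0 in OVCAR3. POLR1D was at 382, 301 and 323 CPM in control pools and at 239, 226 and 206 CPM in HCQ-evolved pools, a log2 fold change of -0.58 ± 0.14 (SE) at an adjusted p of 0.049, and had 0.11 in OVCAR3. EXOSC8 was at 35.8, 22.4 and 26.9 CPM in control pools and at 16.0, 15.8 and 15.6 CPM in HCQ-evolved pools, a log2 fold change of -0.84 ± 0.18 (SE) at an adjusted p of 0.0433. In OVCAR3 EXOSC8 was at 49.0, 34.4 and 45.6 CPM in control pools and at 66.2, 72.6 and 44.5 CPM in HCQ-evolved pools, with 0.51. The difference between lines was -1.33 for EXOSC8 (adjusted p = 0.0979) and -0.67 for POLR1D (adjusted p = 0.317), neither past the threshold. Among the cofactors of snoRNP assembly, 0 of 8 were called, and SHQ1 in OVCAR3 (-0.33) and RUVBL1 in CCL218 (-0.32) had the smallest p. In OVCAR3 the other Pol I factor with the smallest p was TAF1A (0.95, adjusted p = 0.132).

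The ribosomal protein genes, whose products the members assemble, had 71 of 77 below 0 in OVCAR3 and 73 of 77 in CCL218. Their medians were -0.35 and -0.41, with 0 called in either line by edgeR. At an unadjusted p of 0.05, 0 of 77 were lower in OVCAR3, where 7.87% of all genes were. In CCL218, 6 of 77 were lower at this level, where 12.7% of all genes were. Ribosomal protein transcripts are short, and their pool values spread widely with the length trend, from -1.12 to 0.11 in the evolved OVCAR3 pools.

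MYC, a main activator of the pathway, was at 151, 344 and 358 CPM in control pools and at 194, 159 and 178 CPM in HCQ-evolved pools of OVCAR3. In CCL218 it was at 157, 417 and 463 CPM in control pools and at 284, 251 and 274 CPM in HCQ-evolved pools. The control L pool was lowest among controls in both lines and the groups overlapped. The log2 fold changes were -0.68 (adjusted p = 0.356) and -0.36 (adjusted p = 0.559). Of its network of 9 genes, MXI1, a repressor that competes for MAX, rose in CCL218, where it was at 79.3, 85.2 and 77.4 CPM in control pools and at 138, 142 and 133 CPM in HCQ-evolved pools, a log2 fold change of 0.77 ± 0.11 (SE) at an adjusted p of 0.0109. MXD4, a repressor of the same family, fell in CCL218 from 106 ± 9.58 CPM in control pools to 60.1 ± 3.69 CPM (mean and SD, n = 3 pools), a log2 fold change of -0.81 ± 0.13 (SE) at an adjusted p of 0.0136. In OVCAR3, MXI1 had 0.33 and MXD4 -0.83 (adjusted p = 0.435 and 0.0515). The 2 repressors of one family thus moved in opposite directions in CCL218.

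Proliferation genes had another direction. All 15 listed were above 0 in OVCAR3, with a median of 0.88 and 3 called higher (AURKA, CDK1 and CCNB1), beside 0.647% of all genes. In CCL218, 10 of 15 were above 0 with a median of 0.12, where 51.7% of all genes were below 0. There CDK1 alone was called (0.63, adjusted p = 0.0251), beside 3.82% of all genes called higher. The part of proliferation in the member levels was not tested.

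Levels of different members were compared per length. In TPM (counts per kilobase of the canonical transcript, scaled to the same total in every pool, mean of all 12 pools), NPM1 was highest at 2256, followed by FBL at 828, NCL at 621 and NOP10 at 377. RRN3 was lowest at 1.85 and PPAN next at 3.63. Over the members, Spearman's rho between TPM and log2 fold change was -0.014 in OVCAR3 and -0.26 in CCL218, as a description. In the annotation, 8 members (NOP56, NOP58, DKC1, NCL, WDR43, TSR1, PPAN and GNL3) carry 27 annotated snoRNA genes in their introns. These hosts had medians of -0.23 and -0.42, against -0.20 and -0.38 for the other 42. Exons of 16 members overlap another annotated gene and 14 members have named pseudogenes, so the sharing of reads may touch their levels. By location on hg38 (GENCODE 44), the 3 called genes lie apart, RRP12 at chromosome 10, 97356358 to 97426076, minus strand, WDR74 at chromosome 11, 62832342 to 62841809, minus strand and PPAN at chromosome 19, 10106362 to 10112012, plus strand.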

How the data were processed

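The authors aligned poly(A) reads to hg38 with STAR, removed duplicates with RmDup and counted reads per gene with featureCounts, with versions not given in the sources used here. These deposited counts were taken as they are, and 0 columns were left without a sample. Library sizes were scaled by TMM, and genes with at least 1 CPM in 3 or more libraries entered a quasi-likelihood F test per line (edgeR 4.0.16 in R 4.3.3, robust), Benjamini-Hochberg adjusted over all genes, at a threshold of 0.05. Lines were compared by the interaction term of a joint fit of 12 libraries. DESeq2 1.42.0, another scaling, no filter, a plate-position block, a spline offset in length and GC content (GENCODE 44, 92.6% of symbols matched) and leaving out each pool were alternatives. Combining block and spline was chosen after seeing the data.

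Plate position is shared by control and evolved plates. After group means were removed, same-position pools of CCL218 correlated at 0.58, 0.31 and 0.24 across genes, which passes the limit of 0.1 for pairing. Control M correlated more with HCQ-evolved R (0.51) than with HCQ-evolved M, and control R with HCQ-evolved M at 0.15. The correlations were thus not fully specific to position, and the blocked fit of CCL218 is given beside the unblocked one. Differences between pools within groups exceeded sampling noise, so no pools were merged. The members and all lists were chosen with earlier results of these data known. Pool values are given for members past the threshold, the Pol I members, the smallest p of each role and the 3 highest and 3 lowest fold changes per line. From the other lists, called genes are named, or else the one of smallest p, and other members named were picked after their values were seen. Some marker genes are not reported here. The fits were tested on simulated data with changes larger than any member had and with no length trend or plate position. The simulation thus does not show how the fits behave with such trends or with smaller changes.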

Additional observations from a re-analysis of the deposited data

How the results depend on the processing

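The count of members called in OVCAR3 was 0, and 1 under DESeq2 (beside 4.61% of all genes called lower), with the length and GC trend removed (3.65%), or in one fit of all 12 libraries (4.81%). In CCL218 the count of 3 became 18 under DESeq2 (8.72% of all genes called lower), 5 without a filter (1.93%), 12 with the plate-position block (6.43%), 19 with the length and GC trend removed (7.62%), 16 with both block and trend, an alternative added after seeing the data (6.13%), and 1 in one fit of all 12 libraries (2.32%), where 2.64% were called with the 3. Leaving out 1 pool gave 0 to 30, and 11.6% of all genes were called lower in the fit with 30. In the difference between lines the count was 1 with the trend removed and 0 otherwise. The share of all genes called there was 0.872% in the main fit and is not given here for the trend removed. Within lines, removing the trend raised calls over all genes in either direction from 227 to 977 in OVCAR3 and from 791 to 2322 in CCL218. The member medians kept their direction under every alternative run, from -0.27 to -0.19 in OVCAR3 and from -0.40 to -0.34 in CCL218 when 1 pool was left out.

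With 1 pool left out, signs turned for 20 members in OVCAR3 (from -0.42 for GNL2 to 0.14 for UTP20 with all pools) and for 6 in CCL218 (from -0.15 to -0.021), and the cause was not tested. HEATR1 ran from -0.40 to 0.55 in OVCAR3 and from -0.31 to 0.17 in CCL218 with 1 pool left out, and was 0.013 in CCL218 with the block. UTP20 ran from -0.077 to 0.38 in OVCAR3 and from -0.35 to 0.19 in CCL218. POLR1A in OVCAR3 ran from -0.55 to 0.0032, and RRN3 in CCL218 from -0.14 to 0.058, with 0.017 when no filter was used.

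In OVCAR3 the pools share only a position name: same-position correlations were 0.45, -0.73 and -0.53, and the block left 0 members called. With 3 pools per group an exact permutation test cannot go below p = 0.1, so calls rest on spread shared across genes.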
